A study of Homo sapiens with 12 samples.

Results

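The 10 genes described here were followed through 12 RNA-seq libraries of A375 cells: the immune checkpoint ligands and related surface molecules CD274 (PD-L1), PDCD1LG2 (PD-L2), CD276 (B7-H3), VTCN1 (B7-H4), PVR (CD155), NECTIN2 (CD112), CD47, LGALS9 (galectin-9) and TNFRSF14 (HVEM), and NT5E (CD73), the enzyme that makes extracellular adenosine. They were chosen by name, with earlier results of these data known, and all 10 were found among the 58347 genes counted in the deposited files. A375 is an established human melanoma line with an activating BRAF mutation, and all samples came from this 1 line. Cells were given DMSO (the vehicle), tretinoin (all-trans retinoic acid, a ligand of the retinoic acid receptors), vemurafenib (an inhibitor of mutant BRAF), or vemurafenib and tretinoin together, for 8 h, with 3 replicates per group. The labels give 5 µM for every group, DMSO included, and do not say whether the combination held that concentration of each drug. Nothing in the labels says that the replicates of a group were separate cultures on separate days, so the p-values below measure the spread between these samples, which may be technical.

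Checkpoint ligands sit on the surface of a tumour cell and engage inhibitory receptors on T cells, NK cells or macrophages. PD-L1 and PD-L2 bind PD-1, PVR and NECTIN2 bind TIGIT but also the activating receptor CD226, CD47 binds SIRPα on phagocytes, galectin-9 binds TIM-3, and HVEM binds BTLA and CD160. CD73 acts in a different way: after CD39 has cut extracellular ATP to AMP, CD73 turns AMP into adenosine, which damps T and NK cells through adenosine receptors. These are transcript levels from cultured tumour cells with no immune cells added, so nothing here measures surface protein or an immune response.

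Total counts per sample ran from 13510235 to 21534377. Tretinoin replicate 1 stood furthest from its group: its counts differed from the other 2 tretinoin replicates by a chi-square per degree of freedom of 21.5 and 24.5, against 2.69 between those 2. The textbook targets of both drugs were checked first. DUSP6, an ERK-induced phosphatase, fell from 116.1 to 126.9 CPM (counts scaled to library size) in DMSO to 1.40 to 2.10 CPM with vemurafenib, and SPRY2, SPRY4, ETV4, ETV5 and EGR1 fell as well. DHRS3, a retinoid-induced reductase, rose with tretinoin by 2.91 on the log2 scale (SE 0.09, edgeR adjusted p = 1.90e-12), CYP26B1 and TGM2 also rose, and RARB and CYP26A1 did not pass the test. Of 7 melanoma markers, MITF was found at 17.6 ± 1.88 CPM in DMSO (SD, n = 3) and S100B at 9.08 ± 0.57 CPM, while PMEL and MLANA averaged 1.16 and 0.19 CPM and SOX10 was listed at 0 counts in all 12 samples; the summed level of the list was 25.9 to 30.8 CPM in DMSO and 42.1 to 44.0 CPM with vemurafenib. The summed level of 10 immune cell markers was 1.74 to 3.65 CPM in DMSO, 3.51 to 5.86 with tretinoin, 4.52 to 5.89 with vemurafenib and 4.93 to 7.21 with the combination, and 5 of the 10 had at most 10 counts in any sample. The 1 marker of these that passed the filter on low counts, PTPRC (CD45, the pan-leukocyte phosphatase), had 13 to 26 counts per sample in DMSO and 37 to 83 in the treated groups and was called higher in all 3 of them, and its part in the results below was not tested.

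Members were read on 2 scales. Levels between samples are CPM adjusted for composition by TMM, and levels between genes are the same values divided by exon length, given as FPKM. On the FPKM scale the 10 genes fell into tiers in DMSO cells. CD276 was highest at 36.8 ± 1.75 FPKM (SD, n = 3), followed by PVR at 31.9 ± 1.28, NT5E at 15.4 ± 1.29, NECTIN2 at 11.2 ± 0.70 and CD47 at 7.76 ± 0.45. CD274 at 0.499 ± 0.012 FPKM and TNFRSF14 at 0.475 ± 0.022 FPKM were far lower, and the sample values of these neighbours overlapped, while the 5 above them did not overlap one another. PDCD1LG2 (0.091 ± 0.062 FPKM), LGALS9 (0.042 ± 0.037 FPKM) and VTCN1 (0.022 ± 0.021 FPKM) were near 0, and their levels overlapped. The order in DMSO was the same when TPM replaced FPKM. With vemurafenib NT5E moved from rank 3 to rank 5, below NECTIN2 and CD47, VTCN1 moved from rank 10 to rank 8, and PDCD1LG2 from rank 8 to rank 10, the last 2 on few counts. TNFRSF14 stood at rank 6 above CD274 in every treated group. With tretinoin that gap was narrow (0.526 against 0.513 FPKM) and the samples overlapped. With the combination PVR (18.2 ± 0.57 FPKM) stood above CD276 (16.1 ± 1.5 FPKM).

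**Figure D1:**
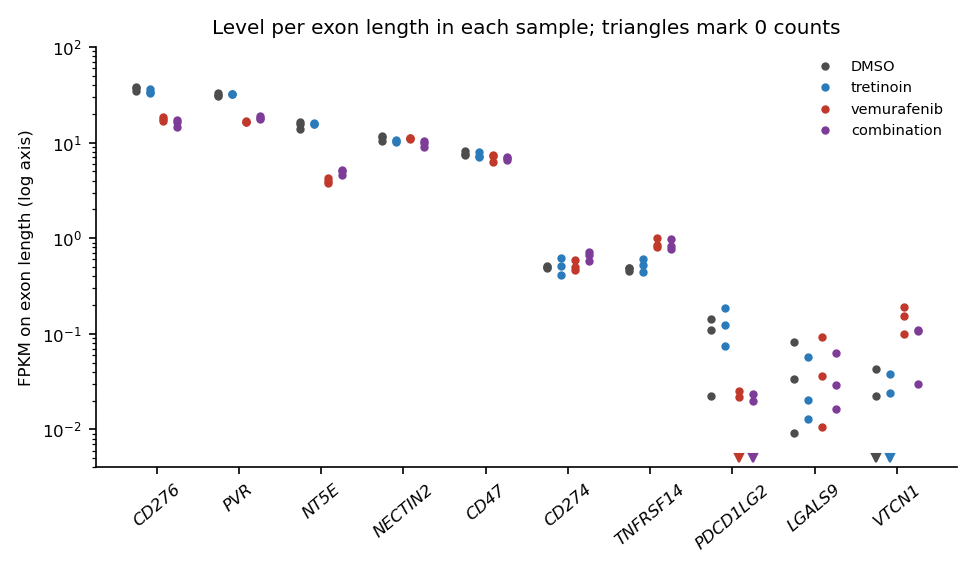
Level of each of the 10 genes per exon length (FPKM, log axis) in each of the 12 samples, with genes ordered by their DMSO mean and triangles marking samples with 0 counts. The upper 5 genes sit at 3.79 FPKM or more in every sample, CD274 and TNFRSF14 lie lower, at up to 0.724 and 1.01 FPKM, and PDCD1LG2, LGALS9 and VTCN1 stay below both, at 0.191 FPKM or less.

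Of the 10 members, 7 passed the filter on low counts and were tested with edgeR's quasi-likelihood test across 16740 genes. Against DMSO, vemurafenib lowered NT5E, CD276 and PVR and raised TNFRSF14, the combination did the same and also lowered NECTIN2, and none of the 7 passed the test with tretinoin. With vemurafenib, 3 of the 7 tested members were called lower, where 26.3% of all tested genes were, and 1 was called higher, where 26.4% were. CD276, PVR and CD47 belong to the 4185 tested genes with the highest mean CPM, of which 47.4% were called lower with vemurafenib. A fall was thus common among genes at their level, though CD47 was not called. NT5E, the member with the largest fall, was not among these genes by its mean over all 12 samples (45.4 CPM), which its own fall lowers. In DMSO alone it stood at 69.8 CPM, above CD47 at 63.8 CPM. With the combination, 4 of 7 were called lower against 26.5% of all tested genes, and 1 of 7 higher against 27.1%. With tretinoin, 0 of 7 members were called by edgeR and 0 by DESeq2, where edgeR called 5.68% of all tested genes in either direction. At an unadjusted p under 0.05 in edgeR there were 0 of the 7, beside 3915 of all 16740 genes. The median log2 fold change of the 7 was 0.02 with tretinoin, −0.15 with vemurafenib and −0.20 with the combination, beside 0.01, 0.02 and 0.03 over all tested genes. When libraries were scaled by total counts alone, the median of all genes shifted up by 0.19 with vemurafenib and by 0.16 with the combination. The members called were then 3 lower and 2 higher in each of those comparisons. Of all 16740 genes, this scaling called 2628 lower and 6575 higher with vemurafenib, and 2916 lower and 6242 higher with the combination. The 3 comparisons with DMSO share the same 3 DMSO samples.

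**Figure D2:**
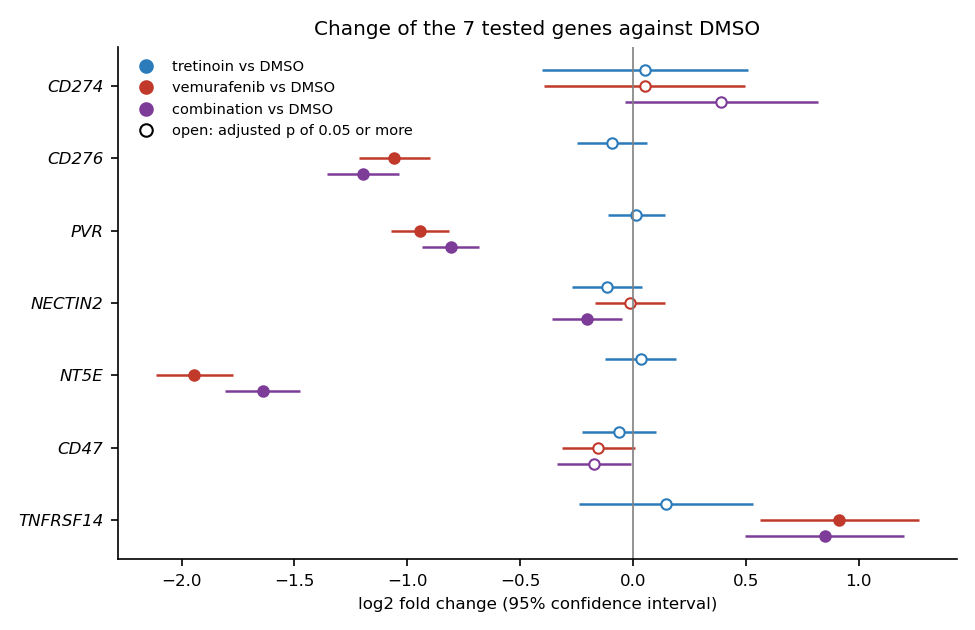
Log2 fold change against DMSO of the 7 tested genes with 95% confidence intervals (lines), for tretinoin (blue), vemurafenib (red) and the combination (purple), with filled points past an adjusted p of 0.05. The intervals of NT5E, CD276 and PVR lie below 0 and those of TNFRSF14 above 0 in both vemurafenib-containing groups, and all 7 tretinoin intervals include 0.

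The promoter windows of the 4 members that vemurafenib moved are printed here so that their sequence can be set beside their changes. Each is 300 bases from RefSeq (GRCh38.p14, given 5′ to 3′ on the gene's strand, with 250 bases before the start and 50 after), and capitals mark matches to any of 7 motifs searched on both strands, where adjacent matches may overlap: a GC box (GGGCGG), a nuclear receptor half-site (AGGTCA), an ETS motif (CCGGAAG), AP-1 (TGANTCA), an E-box (CACGTG), CRE (TGACGTCA) and a STAT motif (TTCCNGGAA).
NT5E, chr6:85449833-85450132, plus strand: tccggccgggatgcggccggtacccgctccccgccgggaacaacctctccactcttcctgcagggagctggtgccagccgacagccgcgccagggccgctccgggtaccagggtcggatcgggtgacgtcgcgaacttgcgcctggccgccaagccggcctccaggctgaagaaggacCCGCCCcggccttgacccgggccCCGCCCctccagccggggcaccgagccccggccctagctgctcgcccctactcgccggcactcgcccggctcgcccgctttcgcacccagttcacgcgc
CD276, chr15:73684133-73684432, plus strand: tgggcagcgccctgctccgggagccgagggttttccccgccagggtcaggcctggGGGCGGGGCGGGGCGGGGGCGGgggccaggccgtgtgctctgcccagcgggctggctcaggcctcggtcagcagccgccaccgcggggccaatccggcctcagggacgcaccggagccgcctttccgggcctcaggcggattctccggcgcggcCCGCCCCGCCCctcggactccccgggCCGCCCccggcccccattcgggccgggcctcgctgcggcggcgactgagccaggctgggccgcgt
PVR, chr19:44643660-44643959, plus strand: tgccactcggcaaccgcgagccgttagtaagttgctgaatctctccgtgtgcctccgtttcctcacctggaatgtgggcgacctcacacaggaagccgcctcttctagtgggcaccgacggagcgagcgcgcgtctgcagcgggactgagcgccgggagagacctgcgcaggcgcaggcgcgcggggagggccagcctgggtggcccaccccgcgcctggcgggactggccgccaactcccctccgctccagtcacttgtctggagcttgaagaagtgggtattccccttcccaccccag
TNFRSF14, chr1:2556121-2556420, plus strand: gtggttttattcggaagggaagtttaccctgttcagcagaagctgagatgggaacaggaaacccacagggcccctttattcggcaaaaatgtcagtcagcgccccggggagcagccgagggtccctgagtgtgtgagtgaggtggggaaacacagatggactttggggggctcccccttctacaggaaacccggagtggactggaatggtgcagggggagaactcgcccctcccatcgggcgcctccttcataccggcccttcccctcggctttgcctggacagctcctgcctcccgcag
The CD276 window held 7 GC box matches and the NT5E window 2, and the PVR and TNFRSF14 windows held none of the 7 motifs. Of all 35116 promoter windows in the RefSeq table, 45% held a GC box, 13.8% an AGGTCA half-site, 10.3% the ETS motif, 7.71% AP-1, 7.26% the E-box, 1.85% CRE and 1.15% the STAT motif. GC content was 75% for NT5E, 80.3% for CD276, 67.3% for PVR and 60.3% for TNFRSF14. CD276 had a further window, at chr15:73684520-73684819, with 2 GC boxes and an ETS match. Among the other members with a window, GC boxes occurred in those of CD47 (6), NECTIN2 (3) and CD274 (1), so they were not particular to the members that fell. AGGTCA occurred in those of CD274, CD47 and LGALS9, CRE in that of NECTIN2 and AP-1 in that of VTCN1. These are matches of letters only, and binding was not measured. PDCD1LG2 had no window in the table.

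NT5E had the largest change among the tested members. The gene (ENSG00000135318.11, chr6:85449584-85495791, plus strand in GRCh38) stood at 63.5, 70.8 and 75.0 CPM in the DMSO samples and at 71.8, 70.3 and 72.4 CPM with tretinoin. It stood at 19.1, 17.2 and 18.2 CPM with vemurafenib and at 20.9, 22.8 and 23.4 CPM with the combination. Every sample given vemurafenib, alone or combined, was thus below every sample not given it, and the 2 vemurafenib-containing groups did not overlap each other. NT5E fell 3.85-fold with vemurafenib (log2 −1.94, SE 0.08, edgeR adjusted p = 2.19e-12) and 3.12-fold with the combination (log2 −1.64, SE 0.08, adjusted p = 1.37e-11), with 302 to 368 counts per sample in the vemurafenib group. Adding tretinoin to vemurafenib left NT5E 1.23-fold higher than vemurafenib alone (log2 0.30, 95% confidence interval 0.13 to 0.48, edgeR adjusted p = 0.0447). That was the only 1 of 7 tested members called in this comparison, where 4.47% of all tested genes were called in either direction. The call lay at the edge of the threshold: over the 14 alternatives the fold change ran from 0.26 to 0.35 on the log2 scale and the adjusted p from 0.025 to 0.226. It was lost without vemurafenib replicate 1 (adjusted p = 0.0745), replicate 2 (0.226) or replicate 3 (0.119) and without combination replicate 2 (0.167) or replicate 3 (0.191). With the replicate number as a block the adjusted p was 0.0771.

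CD276 encodes B7-H3, a member of the B7 family for which no settled receptor is known. The gene (ENSG00000103855.17, chr15:73683966-73714518, plus strand) was measured at 193.5, 212.7 and 205.6 CPM in DMSO and at 201.3, 189.6 and 183.6 CPM with tretinoin. With vemurafenib the values were 93.3, 99.0 and 101.8 CPM, and with the combination 80.1, 90.1 and 96.6 CPM. The vemurafenib and combination samples overlapped each other and lay well below all DMSO and tretinoin samples. The fall was 2.08-fold with vemurafenib (log2 −1.06, SE 0.07, edgeR adjusted p = 2.96e-09) and 2.29-fold with the combination (log2 −1.20, SE 0.07, adjusted p = 5.89e-10). Between the combination and vemurafenib alone, CD276 differed by −0.14 on the log2 scale (95% confidence interval −0.30 to 0.02, adjusted p = 0.446). VTCN1 (ENSG00000134258.16, chr1:117143587-117210960, minus strand), its relative B7-H4, had 2, 1 and 0 counts in the DMSO samples and 1, 2 and 0 with tretinoin. It had 9, 12 and 5 counts with vemurafenib and 6, 7 and 2 with the combination. Every vemurafenib sample was above every DMSO sample, at 0.448 ± 0.139 against 0.065 ± 0.064 CPM (SD, n = 3). VTCN1 was below the filter, and in the edgeR fit without a filter its vemurafenib difference had an adjusted p of 0.00798 and its combination difference one of 0.158. DESeq2, whose own filter kept all 10 members in this comparison, called VTCN1 higher with vemurafenib too. The adjusted p was 0.0313 by its Wald test and 0.0155 with a beta prior. DESeq2 so called 2 members higher and 3 lower, where its Wald test called 4011 of 19922 genes higher and 4279 lower.

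**Figure D3:**
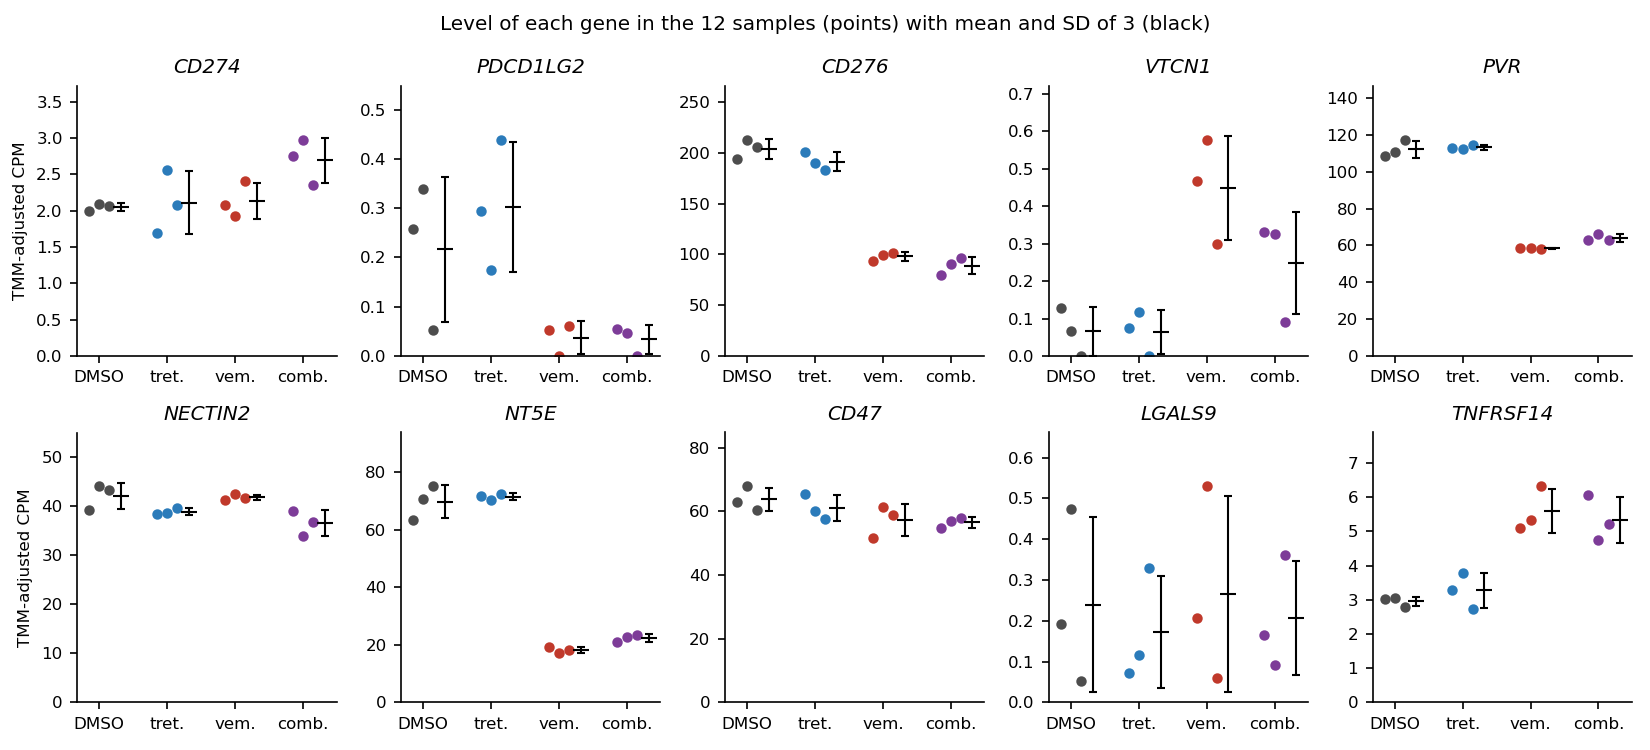
TMM-adjusted CPM of each gene (vertical axis from 0, a scale for each gene) in the 3 samples (points) of DMSO, tretinoin, vemurafenib and combination, with the mean and SD in black. NT5E, CD276 and PVR are lower in all 6 samples given vemurafenib, TNFRSF14 is higher in those 6, and the levels of PDCD1LG2, VTCN1 and LGALS9 rest on 12 counts or fewer per sample.

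PVR and NECTIN2, nearby genes of the nectin family on chromosome 19 that share the receptors TIGIT and CD226, were both called lower with the combination, and PVR but not NECTIN2 was called lower with vemurafenib alone. The difference between their changes was not tested. PVR (ENSG00000073008.14, chr19:44643798-44663583, plus strand) stood at 108.7, 110.6 and 117.3 CPM in DMSO, 113.0, 112.2 and 114.8 with tretinoin, 58.4, 58.8 and 58.0 with vemurafenib, and 62.95, 66.4 and 62.9 with the combination. The vemurafenib samples were the lowest 3 of the 12. PVR fell 1.92-fold with vemurafenib (log2 −0.94, SE 0.06, edgeR adjusted p = 8.84e-10) and 1.75-fold with the combination (log2 −0.81, SE 0.06, adjusted p = 5.14e-09). The 3 combination samples were all above the 3 vemurafenib samples, but this difference did not pass the test (log2 0.13, 95% confidence interval 0.01 to 0.26, adjusted p = 0.321).

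NECTIN2 (ENSG00000130202.9, chr19:44846175-44889228, plus strand) was at 39.0, 43.9 and 43.2 CPM in DMSO, 38.3, 38.6 and 39.6 with tretinoin, 41.2, 42.3 and 41.5 with vemurafenib, and 39.0, 33.8 and 36.8 with the combination. The groups lay close together, with the combination lowest. With vemurafenib NECTIN2 differed from DMSO by −0.01 on the log2 scale (95% confidence interval −0.17 to 0.14), an estimate that became 0.18 (adjusted p = 0.0427) under scaling by total counts alone. With the combination it was 1.15-fold lower (log2 −0.20, SE 0.07, edgeR adjusted p = 0.0259), a call lost under total counts (log2 −0.04, adjusted p = 0.655), without a filter (0.131), with a minimum of 10 counts in every sample (0.0707) or with only the 2 groups compared (0.0587). It was lost as well without DMSO replicate 2 (adjusted p = 0.089), DMSO replicate 3 (0.0727) or combination replicate 2 (0.124). NECTIN2 shares a stretch of 267 bases at 98.1% identity with the pseudogene AC092916.2, so some of its reads could have been assigned ambiguously. CD96, a further receptor of PVR that is known from T and NK cells, was itself counted at 131.5 CPM on average in DMSO and was lower with vemurafenib at 85.3 CPM (log2 −0.62, SE 0.07, edgeR adjusted p = 1.14e-06). It is named here because of its level, after the values were seen. The other 12 genes of the list of immune cell receptors were low: 9 of the 13 had at most 10 counts in any sample.

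CD274 and PDCD1LG2 lie side by side on chromosome 9 and encode the ligands of PD-1. CD274 (ENSG00000120217.13, chr9:5450503-5470566, plus strand) was measured at 2.0, 2.09 and 2.06 CPM in DMSO, 1.69, 2.56 and 2.08 with tretinoin, 2.08, 1.92 and 2.40 with vemurafenib, and 2.75, 2.97 and 2.35 with the combination. The combination samples were all above the DMSO samples and overlapped the tretinoin and vemurafenib ones. These levels rest on 23 to 64 counts per sample. The difference between the combination and DMSO was 1.31-fold (log2 0.39, 95% confidence interval −0.04 to 0.82, edgeR adjusted p = 0.114) and did not pass the test although it did under total counts alone (log2 0.55, adjusted p = 0.0267). With vemurafenib alone the estimate was 0.05 (95% confidence interval −0.39 to 0.50), and on the linear scale that interval ran from 0.761-fold to 1.41-fold at these counts. PDCD1LG2 (ENSG00000197646.7, chr9:5510570-5571254, plus strand) had 4, 5 and 1 counts in DMSO, 4, 3 and 8 with tretinoin, 1, 0 and 1 with vemurafenib, and 1, 1 and 0 with the combination. All 6 samples given vemurafenib were thus at 0 or 1 count. Without a filter, the edgeR adjusted p was 0.145 for vemurafenib and 0.115 for the combination against DMSO, and 0.0281 for the combination against tretinoin. For that last difference DESeq2 gave 0.052 by its Wald test and 0.0341 with a beta prior.

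CD47, the signal that restrains phagocytes (ENSG00000196776.14, chr3:108043094-108091862, minus strand), was called in none of the 6 comparisons. It stood at 63.0, 67.8 and 60.6 CPM in DMSO, 65.6, 60.2 and 57.7 with tretinoin, 51.7, 61.5 and 58.9 with vemurafenib, and 54.6, 57.0 and 58.0 with the combination. The combination samples were all below the DMSO samples. Neither the vemurafenib difference (log2 −0.15, 95% confidence interval −0.32 to 0.01, adjusted p = 0.108) nor the combination difference (log2 −0.17, 95% confidence interval −0.34 to −0.01, adjusted p = 0.0681) passed edgeR's test after adjustment, and under total counts alone the vemurafenib estimate changed sign to 0.04. Without DMSO replicate 3 the combination difference passed at an adjusted p of 0.0498 (log2 −0.22). LGALS9 (ENSG00000168961.16, chr17:27629798-27649560, plus strand) had 3, 7 and 1 counts in DMSO, 1, 2 and 6 with tretinoin, 4, 11 and 1 with vemurafenib, and 3, 2 and 8 with the combination. The groups overlapped throughout, and the gene shares stretches of 298, 152 and 151 bases at 98.7% identity or more with AC015688.4, LGALS9C and LGALS9DP, which leaves its few counts uncertain.

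Among the 7 members that passed the filter, TNFRSF14 was the 1 that rose with vemurafenib. HVEM, its product, can inhibit T cells through BTLA and stimulate them through LIGHT. The gene (ENSG00000157873.17, chr1:2555639-2565382, plus strand) was at 3.03, 3.04 and 2.80 CPM in DMSO, 3.30, 3.78 and 2.74 with tretinoin, 5.09, 5.34 and 6.31 with vemurafenib, and 6.05, 4.74 and 5.21 with the combination. All 6 samples given vemurafenib were above the 6 others, while the vemurafenib and combination groups overlapped. It rose 1.88-fold with vemurafenib (log2 0.91, SE 0.17, edgeR adjusted p = 1.93e-04) and 1.80-fold with the combination (log2 0.85, SE 0.17, adjusted p = 3.57e-04), from 45 to 53 counts per sample in DMSO to 98 to 115 in both groups. Of its exon bases, 831 of 6219 (13.4%) lie under exons of the antisense gene TNFRSF14-AS1, and strand was not used in the counting. Reads of the pair cannot be told apart there, and whether any of them entered the TNFRSF14 count was not tested.

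Adding vemurafenib to tretinoin gave the same 4 calls: 3 of 7 members were lower, where 25% of all tested genes were, and 1 was higher, where 24.1% were. NT5E fell by 1.67 on the log2 scale (SE 0.08, edgeR adjusted p = 1.27e-11), CD276 by 1.11 (SE 0.07) and PVR by 0.82 (SE 0.06), and TNFRSF14 rose by 0.70 (SE 0.16, adjusted p = 0.00178). These 4 calls held with each replicate left out in turn, tretinoin replicate 1 included. In the 2-by-2 design, the interaction asks whether tretinoin acted differently with vemurafenib than without it. The interaction was called for 0 of 7 members by edgeR and by DESeq2, where edgeR called 0.806% of all tested genes. At an unadjusted p under 0.05 in edgeR there was 1 of the 7, beside 2619 of all 16740 genes. That member was NT5E, with an interaction of 0.27 on the log2 scale (95% confidence interval 0.04 to 0.50, adjusted p = 0.27).

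For each member called against DMSO, the protein-coding genes with the nearest pattern were taken by the Euclidean distance over the 3 log2 fold changes against DMSO, among 11631 genes. AEN, CALB2 and CDC25A were nearest to NT5E at distances of 0.16 to 0.24, each with a vemurafenib change between −1.87 and −1.80. TIPIN, RELT and HIPK2 were nearest to CD276 (0.04 to 0.05), KLHL21, UNG and ORC6 to PVR (0.06 to 0.07), AES, LRRC42 and MAPK9 to NECTIN2 (0.03 to 0.04), and TRAK1, VWA5A and FAM102A to TNFRSF14 (0.02 to 0.06). The nearest genes of NT5E thus lay further away than those of the others. These distances were not scaled to the size of the change, and NT5E had the largest change among the tested members. They therefore cannot say whether its pattern was less shared than theirs.

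Of 19 other listed genes of the adenosine pathway 13 were tested, and with vemurafenib 3 rose and 4 fell, beside 26.4% and 26.3% of all tested genes. CD39, encoded by ENTPD1, the enzyme just before CD73, fell from 8.05 to 5.06 CPM (log2 −0.66, SE 0.16, edgeR adjusted p = 0.00185). The equilibrative nucleoside transporter SLC29A1 fell from 66.5 to 38.4 CPM (log2 −0.79) and the adenosine A1 receptor ADORA1 from 32.9 to 20.7 CPM (log2 −0.67). ENPP1, an ectoenzyme that makes AMP from ATP, rose from 5.12 to 7.75 CPM (log2 0.60, SE 0.16, adjusted p = 0.00499), DPP4, which anchors adenosine deaminase at the cell surface, from 1.07 to 2.26 CPM (log2 1.06), and the transporter SLC29A2 from 12.6 to 17.2 CPM (log2 0.44). The median of the list was −0.10 beside 0.02 for all genes. Tretinoin lowered 1 of the 13, ADORA1 (log2 −0.63, SE 0.08, edgeR adjusted p = 1.55e-04), where 5.68% of all tested genes were called in either direction. ADORA1 was also lower when tretinoin was added to vemurafenib (log2 −0.54), and adenosine deaminase, ADA, was then higher (log2 0.47, SE 0.09, edgeR adjusted p = 0.00375). In that comparison 4.47% of all tested genes were called in either direction. In the combination against DMSO, 4 of the 13 rose and 5 fell, beside 27.1% and 26.5% of all tested genes.

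Among the other inhibitory ligands and enzymes, 11 of 17 were tested, and vemurafenib raised 4 and lowered 3 (median −0.13), beside 26.4% and 26.3% of all tested genes. CD24, a ligand of Siglec-10, rose from 1.33 ± 0.49 to 19.8 ± 1.22 CPM (SD, n = 3; log2 3.92, SE 0.19, edgeR adjusted p = 2.56e-11). With the combination it stood at 7.51 ± 1.22 CPM, which was lower than with vemurafenib alone (log2 −1.40, SE 0.14, adjusted p = 5.85e-06). NECTIN4 rose from 0.58 to 1.51 CPM and BTN2A2 from 7.35 to 9.89 CPM. NECTIN1, a nectin that binds CD96, fell from 63.8 to 38.9 CPM, and CEACAM1, a ligand of TIM-3, from 0.47 to 0.17 CPM (log2 −1.38, SE 0.56, adjusted p = 0.0483), on 2 to 9 counts per sample. The CEACAM1 call was lost in 10 of 12 alternatives and that of BTN2A2 in 6 of 14. VSIR (VISTA) moved with both drugs: it rose with tretinoin from 17.2 ± 1.03 to 31.6 ± 2.94 CPM (log2 0.88, SE 0.09, adjusted p = 8.78e-06), fell with vemurafenib to 13.4 ± 0.71 CPM (log2 −0.35, adjusted p = 0.00427), and was at 24.3 ± 0.61 CPM with the combination, above vemurafenib alone (log2 0.85, SE 0.09, adjusted p = 7.40e-06). Its fall with vemurafenib was not called under total counts alone (log2 −0.16, adjusted p = 0.2). Galectin-3, LGALS3, rose slightly with tretinoin (log2 0.29, adjusted p = 0.0339) and when tretinoin was added to vemurafenib (log2 0.28, adjusted p = 0.0334), calls lost in 8 and 7 of 14 alternatives. Scaled by total counts alone, 5 genes of this list were higher and 1 lower with vemurafenib, where 6575 and 2628 of all 16740 genes were. In the combination against DMSO, 5 of the 11 rose and 3 fell, beside 27.1% and 26.5% of all tested genes.

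The list of costimulatory and activating ligands had 12 of 17 genes tested, and with vemurafenib 8 fell and 1 rose (median −0.38), where 26.3% of all tested genes were called lower and 26.4% higher. ICOSLG, the ligand of ICOS, fell from 6.90 to 2.37 CPM (log2 −1.53, SE 0.19, edgeR adjusted p = 3.69e-06), the adhesion molecule ICAM1 from 33.2 to 15.5 CPM (log2 −1.10, SE 0.10, adjusted p = 6.46e-08), and NCR3LG1, the ligand of NKp30, from 10.2 to 6.21 CPM (log2 −0.71). TNFSF4 (OX40 ligand) rose from 0.23 to 0.58 CPM (log2 1.35, SE 0.50, adjusted p = 0.0305), a call lost in 7 of 12 alternatives. CD58, the ligand of CD2, was the 1 gene of the list called with tretinoin (log2 0.50, SE 0.10, edgeR adjusted p = 0.00557), where 5.68% of all tested genes were called. CD70, the ligand of CD27, was the 1 called when tretinoin was added to vemurafenib (log2 0.24, SE 0.07, edgeR adjusted p = 0.0437), where 4.47% were. The CD70 call was lost in 9 of 14 alternatives. With the combination 7 of the 12 were lower and 2 higher than in DMSO, beside 26.5% and 27.1% of all tested genes. Under total counts alone, 5 were lower and 1 higher with vemurafenib, where 2628 and 6575 of all 16740 genes were.

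Of 25 listed regulators of PD-L1, 23 were tested. Vemurafenib lowered 5 and raised 2 (median −0.02), beside 26.3% and 26.4% of all tested genes. Under total counts alone 4 were lower and 9 higher, where 2628 and 6575 of all 16740 genes were. MYC, a transcription factor, fell from 55.9 to 4.32 CPM (log2 −3.69, SE 0.09, edgeR adjusted p = 4.05e-15), the cytokine signalling inhibitor SOCS3 from 27.4 to 10.1 CPM (log2 −1.45), and IFNGR2, a chain of the interferon-γ receptor, from 35.7 to 16.4 CPM (log2 −1.13). STAT2 rose from 20.9 to 48.7 CPM (log2 1.22, SE 0.09, adjusted p = 3.57e-09) and JAK2 from 11.1 to 16.4 CPM (log2 0.57). IRF1, the interferon-induced factor that drives CD274 transcription, was at 25.5, 26.9 and 25.9 CPM in DMSO, 29.2, 29.2 and 30.1 with tretinoin, 11.6, 12.7 and 12.9 with vemurafenib, and 23.4, 22.9 and 20.8 with the combination. The vemurafenib samples stood apart as the lowest, and the combination samples lay just below DMSO. IRF1 was higher with the combination than with vemurafenib alone (log2 0.85, SE 0.08, edgeR adjusted p = 3.86e-06). It was the 1 gene of the list with an interaction of the drugs past the threshold (log2 0.67, edgeR adjusted p = 0.00848), where 0.806% of all tested genes were. MYC was also higher than with vemurafenib alone (log2 0.44, adjusted p = 0.0267), a call lost in 10 of 14 alternatives. Tretinoin alone moved 0 of the 23 in edgeR and 0 in DESeq2, where edgeR called 5.68% of all tested genes. At an unadjusted p under 0.05 in edgeR there were 6 of the 23, beside 3915 of all 16740 genes. Of the list, 2 were called without tretinoin replicate 3, where 1367 of all 17151 genes were, and 1 without a filter, where 1540 of all 41806 were. In the combination against DMSO, 4 rose and 5 fell, beside 27.1% and 26.5% of all tested genes.

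The partners and modifiers of CD47 numbered 6, of which 5 were tested. Thrombospondin-1, THBS1, a secreted ligand of CD47, fell with vemurafenib from 3393 to 1330 CPM on average (log2 −1.35, SE 0.13, edgeR adjusted p = 9.24e-08). It fell with tretinoin too, to 2074 CPM (log2 −0.71, SE 0.12, adjusted p = 0.00208), and was at 803 CPM with the combination, lower than with vemurafenib alone (log2 −0.73, SE 0.13, adjusted p = 0.00132). SIRPA, the receptor of CD47, rose with vemurafenib from 31.7 to 45.8 CPM (log2 0.53, SE 0.08, adjusted p = 1.83e-05) and with tretinoin to 39.99 CPM (log2 0.33, adjusted p = 0.0185), the latter call lost in 2 of 14 alternatives. QPCT, a glutaminyl cyclase whose relative QPCTL modifies CD47, rose from 3.46 to 4.95 CPM with vemurafenib (log2 0.53, adjusted p = 0.0391), a call lost in 6 of 14 alternatives. The median of the 5 was −0.13 with vemurafenib and −0.05 with tretinoin.

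**Figure D4:**
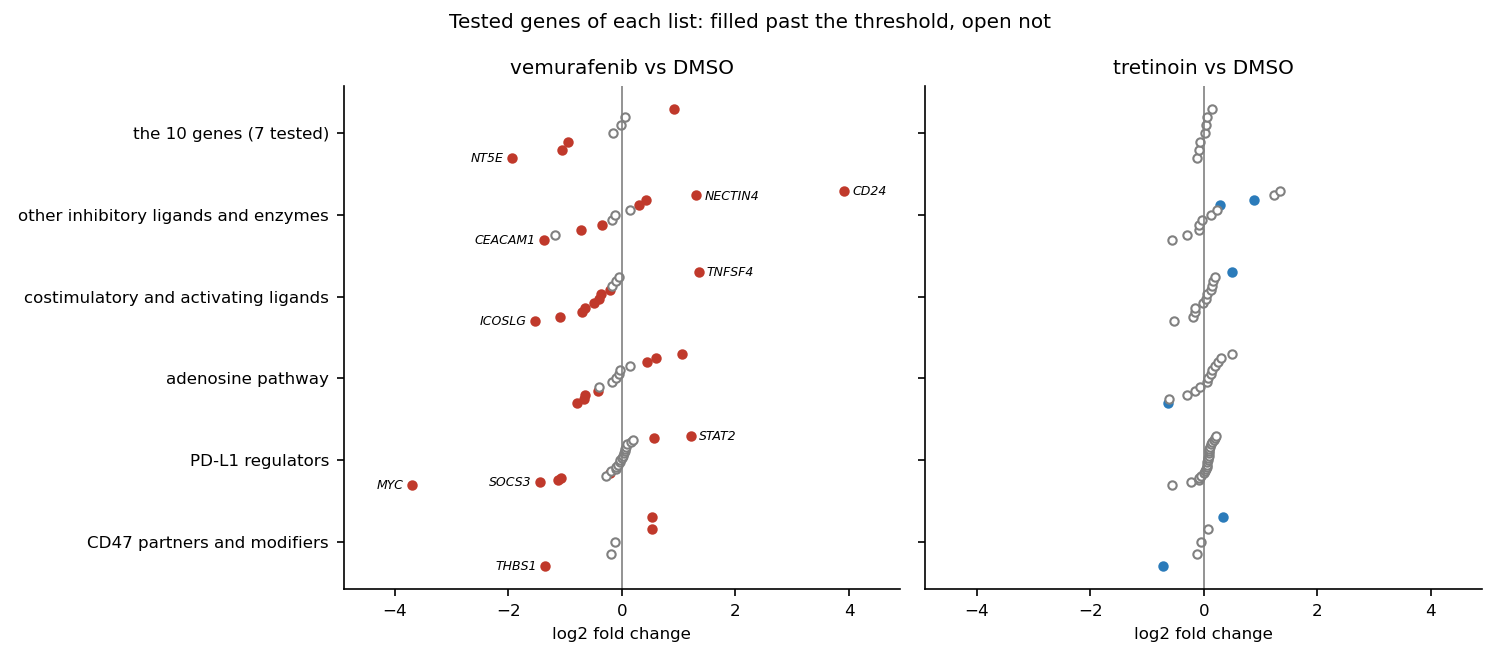
Log2 fold change of every tested gene of the 10-gene set and of the 5 pathway lists (rows) with vemurafenib (left) and tretinoin (right) against DMSO, filled where past an adjusted p of 0.05 and named where the change also exceeds 1.2 in size. With vemurafenib 8 of 12 costimulatory and activating ligands lie among the called falls (26.3% of all tested genes were called lower), and CD24 is the furthest to the right, while the called tretinoin changes are few.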

How the data were processed

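Poly(A) RNA of A375 cells was sequenced as 12 directional paired-end libraries. The authors aligned reads with STAR (2.5.3a) to GRCh38.p10 and deposited raw counts, 1 table per sample, of fragments per GENCODE 27 gene, made with summarizeOverlaps in Union mode with strand ignored, so fragments on overlapping genes could not be split by strand. Symbols and exon lengths were taken here from GENCODE 29, which held 58084 of the 58347 gene identifiers. Differential expression was computed with edgeR (4.0.16) in R (4.3.3): genes were filtered with filterByExpr, libraries scaled by TMM, and 1 quasi-likelihood model was fitted to all 12 samples without a block, with Benjamini-Hochberg adjustment over 16740 genes and a threshold of 0.05. The common dispersion was 0.0065. FPKM here is TMM-adjusted CPM per kilobase of exon. The test was checked on simulated counts with far fewer changed genes than vemurafenib moved, so that check does not cover so broad a change. DESeq2 (1.42.0), the tool of the study's methods, was an alternative, beside other scalings, filters, a replicate block, pairs of groups alone and leaving out each replicate. Depth bounds precision: a gene with 0 counts could hold up to 3, and intervals cover the spread between samples. Shared sequence was sought with blastn (2.17.0; at least 150 bases at 98% identity). The 10 members and all gene lists were chosen with earlier results of these data known. Named genes were all members and, of each pathway list, up to 3 called rises and 3 called falls with vemurafenib and up to 2 each way with tretinoin and on adding tretinoin to vemurafenib, by size of the log2 fold change. Receptor and marker lists were given by counts and ranges. Promoter windows (RefSeq, GRCh38.p14) were found for 9 members.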

Additional observations from a re-analysis of the deposited data

How the results depend on the processing

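Over 14 alternatives each, the calls of NT5E, CD276, PVR and TNFRSF14 against DMSO, with vemurafenib and with the combination, kept their direction and stayed past the threshold, and NT5E ran from −2.01 to −1.75 with vemurafenib. The call of NT5E on adding tretinoin to vemurafenib made the members called in that comparison 1, which became 0 with DESeq2 size factors, with total counts alone, without a filter and with the replicate block, and ranged from 0 to 1 when a replicate was left out. With the replicate block the NT5E difference was 0.30 (adjusted p = 0.0771) and the block changed no other member's call. Samples with the same number did not deviate together more than others (mean correlation −0.031, from −0.143 to 0.087 over 18 pairs, beside 0.015 over 36 other pairs). Such a mean over all genes cannot say whether they shared a day or batch, and the labels do not give it. The block took the calls over all genes for the interaction from 135 to 75.

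Estimates near 0 changed sign in some settings. PVR with tretinoin became −0.001 with DESeq2, and under total counts alone CD47 became 0.013 with tretinoin, 0.043 with vemurafenib and −0.065 in the interaction, and NECTIN2 0.183 with vemurafenib and 0.001 in the combination against tretinoin. With at least 10 counts in every sample NECTIN2 with vemurafenib was 0.032. With 1 replicate left out, the ranges that crossed 0 were −0.106 to 0.174 for CD274, −0.005 to 0.049 for PVR and −0.027 to 0.091 for NT5E with tretinoin, −0.04 to 0.119 for CD274 and −0.067 to 0.017 for NECTIN2 with vemurafenib, −0.093 to 0.032 for CD47 and −0.161 to 0.026 for TNFRSF14 on adding tretinoin to vemurafenib, and −0.116 to 0.023 for CD276 and −0.033 to 0.094 for CD47 in the interaction. The cause was not tested.

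Over all genes, calls with tretinoin numbered 951 (583 higher, 368 lower), 1540 without a filter, 305 with only the 2 groups compared and 379 to 1367 with 1 replicate left out (379 without DMSO replicate 2, 619 without tretinoin replicate 2), and total counts alone split them into 758 higher and 174 lower. Adding tretinoin to vemurafenib gave 749 calls, 1269 with only the 2 groups and 460 to 586 with 1 replicate left out, and the interaction gave 135, 610 without a filter, 254 with DESeq2 and 60 to 265 with 1 replicate left out. Total counts alone gave 6575 higher and 2628 lower with vemurafenib, where the main scaling gave 4411 and 4400. Of 39 values of named pathway genes, 29 kept their call in every setting and 0 changed sign. The other 10 lost it in at least 1: BTN2A2, CEACAM1, VSIR, TNFSF4 and QPCT with vemurafenib, LGALS3 and SIRPA with tretinoin, and LGALS3, CD70 and MYC on adding tretinoin to vemurafenib. These settings for the pathway genes were chosen after seeing the data. PDCD1LG2, VTCN1 and LGALS9, with at most 12 counts per sample, were tested only without a filter and by DESeq2, where VTCN1 was called higher with vemurafenib (adjusted p = 0.0313) and, with a beta prior, PDCD1LG2 lower in the combination than with tretinoin (0.0341).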
